A study of Homo sapiens with 24 samples.

Results

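CD70 and 9 other genes of the tumor necrosis factor (TNF) superfamily were followed across triple-negative breast cancer (TNBC) lines. 5 of the 10 encode ligands (CD70, TNFSF9, TNFSF4, TNFSF10 and TNFSF15) and 5 encode receptors (TNFRSF10A, TNFRSF10B, TNFRSF11B, TNFRSF12A and TNFRSF21). Their rows were taken by gene symbol, and all 10 were listed in each of the 4 deposited expression tables, which list 18248 to 60651 genes each and 13398 symbols in common. CD70 was selected on its higher measured level in Hs578T stem-like cells (the values of the 6 Hs578T libraries), so the Hs578T values of all 10 genes are given as a description without a test.

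RNA-Seq was done on 24 libraries in 8 groups of 3 biological replicates. Hs578T and HCC70 cells were sorted by FACS into breast cancer stem-like cells (BCSCs), which were CD24-CD44+ and ALDH+, and non-BCSCs, which had neither phenotype. MDA-MB-231 cells carried a control sgRNA (sgCtrl) or KIF20A sgRNA 1 (KIF20A sg1) in one experiment, and an empty vector (EV) or a KIF20A overexpression vector (KIF20A OE) in another. The MDA-MB-231 derivatives came from lentiviral infection and puromycin selection. Each experiment has its own table, its own control group and its own batch number in the labels, so that experiment, line and batch cannot be told apart. All comparisons were made within a table, and none shared control libraries with another. The libraries held 15971297 to 51018667 reads by the numbers estimated from the deposited values, and no pair of replicates was as alike as 1 library sequenced again would be. Levels are in TPM (reads corrected for gene length and scaled to 1 total in all libraries) for the sorted lines and in CPM (reads scaled by depth, with no correction for length) for MDA-MB-231.

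KIF20A, the targeted kinesin, was measured at 153, 173 and 156 CPM in sgCtrl and at 122, 145 and 91.1 CPM in KIF20A sg1. All sg1 values lay below all sgCtrl values, with a log2 fold change of -0.45 that missed the threshold (limma adjusted p = 0.690). In the other MDA-MB-231 experiment KIF20A was at 101, 143 and 124 CPM in EV and at 1348, 269 and 896 CPM across the libraries labelled KIF20A OE (limma log2 fold change 2.49, adjusted p = 0.00249). Those 3 libraries departed from their label in other genes. CD44, which MDA-MB-231 cells carry at a high level, was at 788, 615 and 523 CPM in EV and at 0.125, 0.316 and 1.23 CPM across the libraries labelled KIF20A OE. CDKN2A, which had 0 reads in all sgCtrl, sg1 and EV libraries, was at 276, 336 and 353 CPM there, and IRS4 went from 0 reads to 1750, 1219 and 1744 CPM. The labels give MDA-MB-231 for them, but which cells these 3 libraries hold was not settled here, and the other MDA-MB-231 libraries do not share this profile. Rose and fell, used of them, therefore mean a difference from the EV libraries, which cannot be told apart from a difference between cells of another origin. Of the sort markers, ALDH1A3 was at 280 to 296 TPM in Hs578T non-BCSCs and 701 to 709 TPM in BCSCs, and CD24 at 828 to 912 TPM in HCC70 non-BCSCs and 667 to 725 TPM in BCSCs. The CD24 difference in HCC70 did not pass the limma threshold. CD44 in the sorted lines, CD24 in Hs578T and ALDH1A3 in HCC70 are not given here, so the sort is not judged from these values. In the sorted lines the epithelial marker EPCAM was near 0 in Hs578T and at 182 to 198 TPM in HCC70, KRT5 was at 4017 to 4479 TPM in HCC70, and VIM was at 3661 to 4016 TPM in Hs578T.

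TNF superfamily ligands are mostly trimeric membrane proteins of the cell surface that can also be shed, and each binds 1 or a few receptors on the same or on neighboring cells. Receptors with a death domain can start caspase-driven apoptosis, whereas receptors without one recruit TRAF adaptors and drive NF-kB and MAP kinase signaling. CD70, TNFSF9 and TNFSF4 are best known as costimulatory ligands of antigen-presenting cells for T cells, and CD70 is also found on a number of carcinomas. TNFSF10, known as TRAIL, and its receptors are studied in breast cancer for their capacity to kill tumor cells.

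The RefSeq promoter windows of GRCh38.p14 covered 5 of the 10 genes, and 3 of them are shown because these genes differed in level. TNFSF9 had group means of 6.97 to 12.0 TPM in the 2 sorted lines. TNFSF10 was abundant in HCC70 and nearly silent in Hs578T, and TNFRSF21 was abundant in all lines. Each line gives the 250 bases just before the transcription start, read 5′ to 3′ on the strand of the gene, with a TATA box (TATAAA) and GC boxes (GGGCGG on either strand) in capitals.
TNFSF9, chr19:6530776-6531025, plus strand: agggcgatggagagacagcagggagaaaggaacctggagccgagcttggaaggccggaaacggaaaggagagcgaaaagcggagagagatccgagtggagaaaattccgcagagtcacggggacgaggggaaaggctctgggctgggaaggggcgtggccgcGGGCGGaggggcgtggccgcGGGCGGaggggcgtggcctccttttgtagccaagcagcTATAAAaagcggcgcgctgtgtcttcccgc
TNFSF10, chr3:172523431-172523680, minus strand: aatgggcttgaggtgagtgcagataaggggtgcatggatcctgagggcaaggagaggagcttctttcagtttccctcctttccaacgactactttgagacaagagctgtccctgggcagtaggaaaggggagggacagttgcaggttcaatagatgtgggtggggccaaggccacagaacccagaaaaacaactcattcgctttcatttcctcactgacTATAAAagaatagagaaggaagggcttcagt
TNFRSF21, chr6:47309906-47310155, minus strand: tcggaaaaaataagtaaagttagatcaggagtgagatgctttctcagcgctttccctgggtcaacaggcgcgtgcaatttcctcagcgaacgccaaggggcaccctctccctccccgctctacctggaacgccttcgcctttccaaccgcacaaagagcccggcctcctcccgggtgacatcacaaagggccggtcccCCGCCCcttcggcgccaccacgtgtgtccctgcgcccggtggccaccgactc
In the TNFSF9 window 2 GC boxes began 88 and 68 bases before the start and a TATA box began 30 bases before it. The TNFSF10 window held a TATA box 31 bases before the start and no GC box, and the TNFRSF21 window held 1 GC box 52 bases before the start and no TATA box. Among all 35116 windows of this length, 42.6% held a GC box and 10.7% a TATA box. The G and C content was 64.4%, 49.6% and 62% in the order shown, against a median of 58% over all windows. Neither the AP-1 letters TGANTCA, found in 6.57% of all windows, nor the 10-letter NF-kB site, found in 9.96%, occurred in the 3 windows. These are matches of letters, with no measurement of binding.

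CD70, the ligand of CD27, is encoded on the minus strand at chr19:6583183-6604103 (GENCODE 44, GRCh38), 47258 bases away from TNFSF9. In Hs578T non-BCSCs it was measured at 21.8, 20.7 and 23.8 TPM, and in Hs578T BCSCs at 40.3, 51.5 and 41.8 TPM. Every BCSC library lay above every non-BCSC library, and BCSC replicate 2 was the highest. The means were 22.1 ± 1.58 and 44.5 ± 6.08 TPM (SD, n = 3), a ratio of 2.02. The log2 fold change on the log2(TPM + 1) scale was 0.97, and these are the values that chose the gene. The recovered reads behind them numbered 232 to 303 per non-BCSC library and 473 to 620 per BCSC library. CD70 stood above 64.4% of the genes with a mean over 0 in Hs578T non-BCSCs and above 78.7% in BCSCs. In a bulk library a larger share of CD70-bearing cells and more CD70 RNA per cell cannot be told apart.

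CD70 was all but undetected in the other sorted line and in one of the MDA-MB-231 experiments. HCC70 gave 1 CD70 read, in non-BCSC replicate 1 at 0.109 TPM, and 0 reads in the other 5 libraries. The sgCtrl and KIF20A sg1 libraries gave 0 reads in all 6, which allows up to 0.0602 to 0.0716 CPM per library (3 reads, counting error only). No fold change was computed in either experiment. The EV libraries, made from the same MDA-MB-231 line as sgCtrl, held 32, 0 and 14 CD70 reads, or 1.52, 0 and 0.823 CPM. The libraries labelled KIF20A OE held 46, 29 and 42 reads, or 2.88, 1.31 and 2.25 CPM. The lowest of these lay below the highest EV library, so the groups overlapped. The means stood in a ratio of 2.74. The log2 fold change was 0.89 (SE 0.36, 95% interval 0.07 to 1.70) and just missed the threshold (limma adjusted p = 0.052). The exact permutation test of 3 against 3 libraries, which cannot go below 0.1, gave p = 0.2 (two-sided). CD70 reached the minimum mean of 1 only through the labelled libraries, which fixes its direction, so the limma p is not read as support. CD27, the receptor of CD70, had at most 2 reads in any Hs578T library, at most 6 in any sgCtrl or sg1 library and 2 to 12 in the EV and labelled KIF20A OE libraries. It was not analysed here in HCC70.

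**Figure D1:**
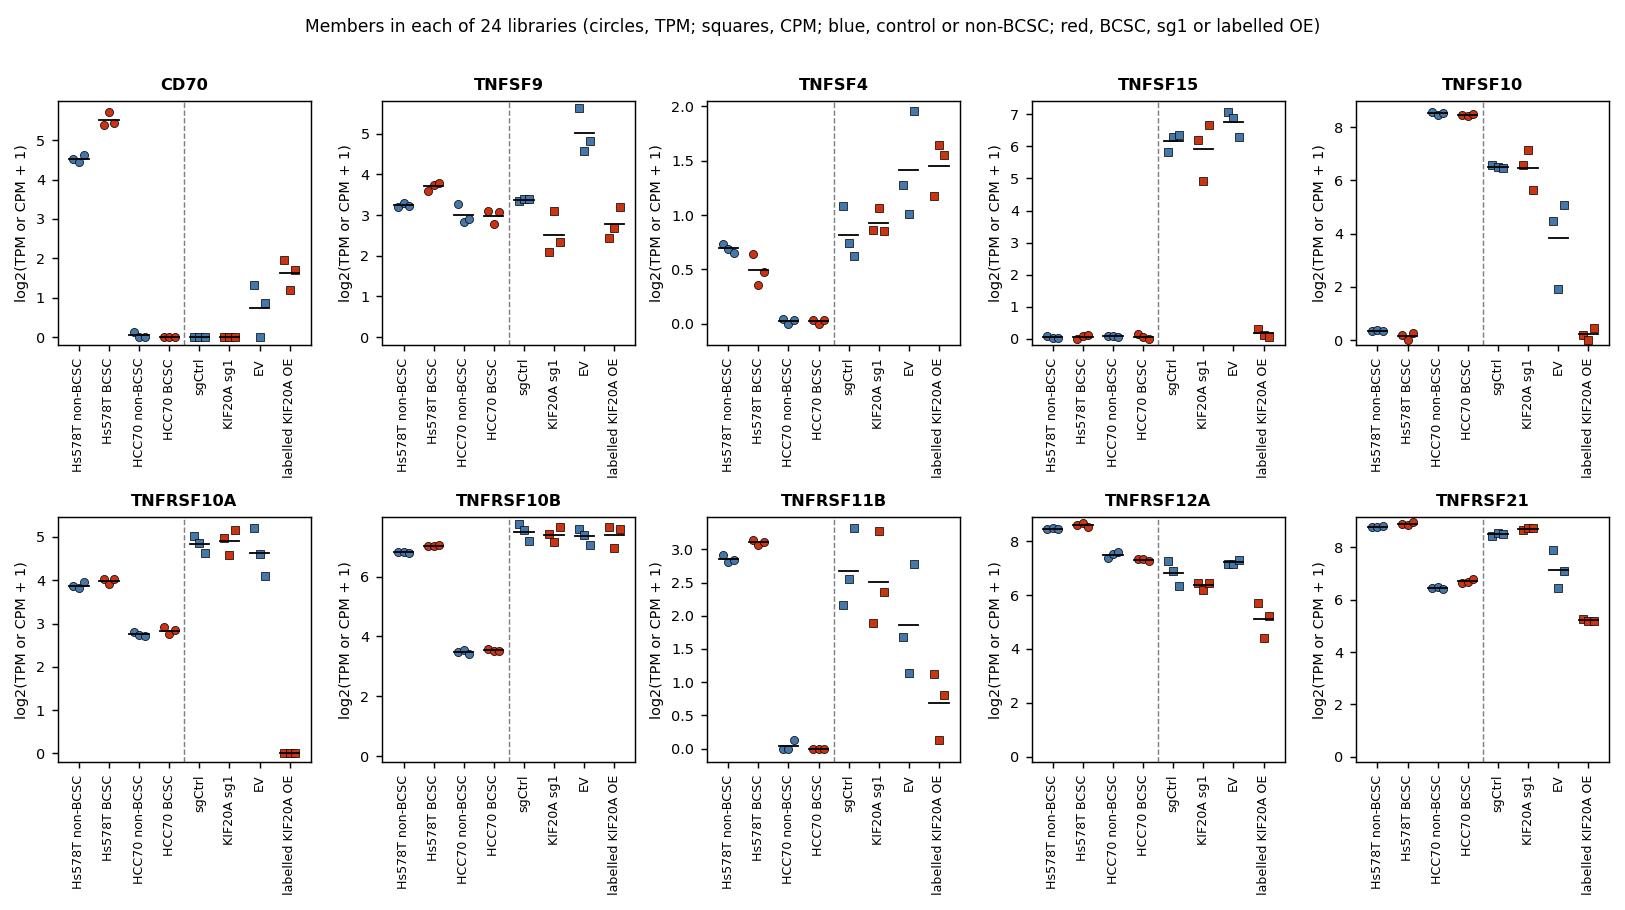
Value of each of the 10 genes in each of the 24 libraries, 1 panel per gene, with TPM for Hs578T and HCC70 (circles) and CPM for MDA-MB-231 (squares). Blue marks non-BCSC, sgCtrl and EV, and red marks BCSC, KIF20A sg1 and the libraries labelled KIF20A OE. CD70 is seen in Hs578T at 20.7 to 51.5 TPM and near 0 elsewhere, while TNFSF15 stands at 77.9 to 134 CPM in EV and at most 0.25 CPM across the libraries labelled KIF20A OE.

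TNFSF9, the ligand of the costimulatory receptor TNFRSF9 (4-1BB), lies on the plus strand at chr19:6531026-6535924 behind the promoter shown first above. Hs578T non-BCSCs held 8.19, 8.81 and 8.35 TPM and Hs578T BCSCs 11.0, 12.3 and 12.7 TPM. All BCSC libraries were above all non-BCSC libraries here as well, with means of 8.45 ± 0.319 and 12.0 ± 0.88 TPM (SD, n = 3) and a log2 fold change of 0.46. HCC70 non-BCSCs held 8.65, 6.05 and 6.50 TPM, and HCC70 BCSCs 7.52, 5.90 and 7.48 TPM. These overlapped, and the log2 fold change was -0.01 (95% interval -0.33 to 0.31, limma adjusted p = 0.971). The difference between Hs578T and HCC70 was not tested, because the Hs578T contrast chose the genes.

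In MDA-MB-231, TNFSF9 was at 9.15, 9.47 and 9.53 CPM in sgCtrl and at 3.26, 7.62 and 4.05 CPM in KIF20A sg1. The sgCtrl libraries were tightly grouped and all 3 sg1 libraries lay below them, with sg1 replicate 2 nearest. The means were 9.38 ± 0.203 and 4.98 ± 2.32 CPM (SD, n = 3), and the log2 fold change was -0.86 (SE 0.24, 95% interval -1.39 to -0.34). This did not pass after adjustment over all genes (limma adjusted p = 0.690). The exact permutation p was 0.1, the lowest that 3 against 3 can give. TNFSF9 was at 48.7, 22.8 and 27.2 CPM in EV and at 4.38, 5.41 and 8.19 CPM across the libraries labelled KIF20A OE, with no overlap. It fell 5.49-fold there, from 32.9 ± 13.8 to 5.99 ± 1.97 CPM (SD, n = 3; limma log2 fold change -2.24, SE 0.31, adjusted p = 0.000314). Its receptor TNFRSF9 was at 6.36, 6.08 and 5.86 TPM in Hs578T non-BCSCs and at 5.52, 4.69 and 4.96 TPM in BCSCs. TNFRSF9 was at 7.62 to 14.6 CPM in sgCtrl and 9.40 to 16.9 CPM in KIF20A sg1, which overlapped, and it stayed under a mean of 1 TPM in HCC70.

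TNFSF10 (TRAIL), the ligand that binds the death receptors TNFRSF10A and TNFRSF10B, is encoded on the minus strand at chr3:172505508-172523475, and was read at very different levels in the 2 sorted lines, whose TPM tables were made separately. In HCC70 it was at 379, 348 and 365 TPM in non-BCSCs and at 346, 339 and 361 TPM in BCSCs. These values overlapped and ranked above 98.0% and 97.7% of the genes with a mean over 0. The means were 364 ± 15.4 and 349 ± 11.5 TPM (SD, n = 3), with a log2 fold change of -0.06 (95% interval -0.19 to 0.07, limma adjusted p = 0.555). In Hs578T it was at 0.28, 0.299 and 0.257 TPM in non-BCSCs and at 0.127, 0 and 0.186 TPM in BCSCs, from 10 to 12 reads and 0 to 8 reads. No BCSC library there reached the lowest non-BCSC library, at levels too low for a fold change to be read.

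In MDA-MB-231, TRAIL varied widely among the KIF20A sg1 libraries and among the EV libraries, but not among the sgCtrl libraries. It was at 95.1, 89.9 and 86.4 CPM in sgCtrl and at 94.4, 142 and 48.2 CPM in KIF20A sg1, where the sg1 libraries spread to both sides of the controls (limma log2 fold change -0.06, adjusted p = 0.967). EV held 21.1, 2.80 and 32.9 CPM, with EV replicate 2 far below the other 2. The libraries labelled KIF20A OE held 0.125, 0 and 0.375 CPM, or 2, 0 and 7 reads, and all lay below every EV library. TNFSF10 fell by 3.62 on the log2(CPM + 1) scale (SE 0.71, limma adjusted p = 0.00197). It reached the minimum mean of 1 only through EV, which fixes its direction, so this p is not read as support. The ratio of the group means was 114 (counting interval 61.8 to 257 from 9 reads). That interval covers counting error only and not the spread among EV libraries. Without labelled KIF20A OE replicate 1, 2 or 3 the ratio was 101, 75.7 or 302.

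TNFRSF10A (death receptor 4) carries a death domain and is encoded at chr8:23190452-23225102 on the minus strand. Of its exonic bases 16.7% are shared with antisense genes on the other strand, as are 7.52% for TNFRSF10B and 2.22% for TNFRSF12A, and whether counting used strand is not given in the sources used here. Hs578T held 13.5, 13.0 and 14.5 TPM in non-BCSCs and 15.3, 14.1 and 15.4 TPM in BCSCs, with overlap and a log2 fold change of 0.12. HCC70 held 6.02, 5.65 and 5.52 TPM in non-BCSCs and 6.51, 5.78 and 6.18 TPM in BCSCs, which overlapped (log2 fold change 0.09, limma adjusted p = 0.535). The sgCtrl and sg1 libraries also overlapped, at 31.4, 28.0 and 24.0 against 30.6, 23.0 and 34.8 CPM (log2 fold change 0.07, limma adjusted p = 0.936). EV held 35.7, 23.2 and 16.2 CPM, whereas the 3 libraries labelled KIF20A OE had 0 reads. Taking 3 reads per library as the limit, 0.188 CPM in the shallowest of them, TNFRSF10A was at least 133-fold lower than the EV mean. From the lowest EV library it was at least 86.4-fold lower. The fitted change had a limma adjusted p of 2.73e-06. The gene reached the minimum mean of 1 only through EV, which fixes its direction, so this p is not read as support.

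TNFRSF10B (death receptor 5), the second TRAIL receptor with a death domain, lies at chr8:23020133-23069031 on the minus strand. It was at 114, 113 and 111 TPM in Hs578T non-BCSCs and at 128, 129 and 133 TPM in BCSCs, all BCSC values being higher, with a log2 fold change of 0.21. In HCC70 it was at 10.3, 10.8 and 9.70 TPM and at 11.0, 10.4 and 10.4 TPM, which overlapped. The sgCtrl values of 218, 187 and 147 CPM overlapped the sg1 values of 169, 142 and 199 CPM (log2 fold change -0.10, limma adjusted p = 0.895). Unlike TNFRSF10A, it was read at similar levels in EV (191, 168 and 132 CPM) and in the libraries labelled KIF20A OE (200, 125 and 192 CPM). Its log2 fold change there was 0.06 (95% interval -0.42 to 0.54, limma adjusted p = 0.812), and the sign turned to -0.31 when libraries were scaled by the median of ratios. The TRAIL receptors are paralogs, and how reads that match several genes were counted is not given in the sources used here.

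TRAIL also has receptors that bind it without a full death domain. TNFRSF10D, a membrane decoy, was at 36.1, 33.6 and 32.8 TPM in Hs578T non-BCSCs and at 26.3, 24.6 and 26.6 TPM in BCSCs, so it ran opposite to TNFRSF10B in the same libraries (log2 fold change -0.39). It fell from 101, 84.6 and 94.5 CPM in EV to 16.6, 10.9 and 17.6 CPM across the libraries labelled KIF20A OE (limma log2 fold change -2.58, adjusted p = 8.29e-06). The decoy TNFRSF10C averaged 5.22 TPM (non-BCSC) and 5.30 TPM (BCSC) in Hs578T and stayed near or under 1 elsewhere.

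TNFRSF11B (osteoprotegerin), a secreted receptor that captures both RANKL and TRAIL, is encoded at chr8:118923557-118951885 on the minus strand. Hs578T non-BCSCs held 6.51, 5.99 and 6.14 TPM and BCSCs 7.79, 7.34 and 7.68 TPM, without overlap (log2 fold change 0.25). HCC70 gave 1 read in 1 library. In sgCtrl it was at 3.49, 4.86 and 8.97 CPM and in sg1 at 2.72, 8.73 and 4.15 CPM, spread alike (log2 fold change -0.16, limma adjusted p = 0.927). EV held 2.19, 1.21 and 5.88 CPM and the libraries labelled KIF20A OE 1.19, 0.0902 and 0.75 CPM, all below EV. The log2 fold change was -1.18 (SE 0.43, limma adjusted p = 0.0375). That call was lost in the limma fit without EV replicate 1 (-1.28, adjusted p = 0.0554), EV replicate 3 (-0.72, adjusted p = 0.0917), labelled KIF20A OE replicate 2 (-0.90, adjusted p = 0.140) or replicate 3 (-1.24, adjusted p = 0.0775). The log2 fold change was -2.14 with a pseudocount of 0.1, -2.55 in edgeR and -2.53 in DESeq2, each past the threshold. TNFRSF11B reached the minimum mean of 1 only through EV, which fixes its direction, so none of these tests is read as support.

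TNFSF4 (OX40 ligand), a costimulatory ligand at chr1:173183731-173207331 on the minus strand, was low throughout. It reached 0.574 to 0.663 TPM in Hs578T non-BCSCs and 0.282 to 0.557 TPM in BCSCs, and no HCC70 library had more than 1 read. It was at 1.12, 0.676 and 0.542 CPM in sgCtrl and at 0.815, 1.09 and 0.811 CPM in sg1. EV held 1.43, 1.02 and 2.88 CPM and the libraries labelled KIF20A OE 1.25, 2.12 and 1.93 CPM, with overlap (log2 fold change 0.04, 95% interval -0.60 to 0.68, limma adjusted p = 0.910), and its sign turned to -0.19 under median-of-ratios scaling. Its receptor TNFRSF4 (OX40) had at most 5 reads in any sorted library and 0 in the sgCtrl and sg1 libraries.

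TNFSF15 (TL1A), a ligand of the death-domain receptor TNFRSF25, is encoded at chr9:114784652-114806039 on the minus strand and was close to 0 in all groups but sgCtrl, sg1 and EV. The sorted lines had 0 to 10 reads per library. In MDA-MB-231 it was at 55.1, 78.0 and 80.6 CPM in sgCtrl and at 72.3, 29.3 and 100 CPM in KIF20A sg1, with sg1 replicate 2 the lowest and replicate 3 the highest of all 6 (limma log2 fold change -0.23, adjusted p = 0.887). EV held 134, 117 and 77.9 CPM from 2807, 2414 and 1325 reads. The libraries labelled KIF20A OE held 0.25, 0.0902 and 0.0535 CPM from 4, 2 and 1 reads. TNFSF15 fell by 6.58 on the log2(CPM + 1) scale (SE 0.23, limma adjusted p = 1.8e-07). It reached the minimum mean of 1 only through EV, which fixes its direction, so this p is not read as support. The group means stood in a ratio of 833 (counting interval 423 to 2170 from 7 reads, counting error only). Without labelled KIF20A OE replicate 1, 2 or 3 the ratio was 1523, 720 or 642. TNFRSF25 did not follow: it was at 8.70 to 36.2 CPM in EV and at 7.71 to 9.58 CPM across the libraries labelled KIF20A OE, which overlapped (limma log2 fold change -0.70, adjusted p = 0.215).

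TNFRSF12A (Fn14), the receptor of TWEAK and one without a death domain, lies at chr16:3018445-3022383 on the plus strand. It was at 349, 356 and 350 TPM in Hs578T non-BCSCs and at 386, 411 and 372 TPM in BCSCs, with every BCSC library higher (log2 fold change 0.15). HCC70 ran the other way: non-BCSCs held 167, 184 and 193 TPM and BCSCs 161, 163 and 152 TPM, with every BCSC library lower. The HCC70 log2 fold change was -0.19 (SE 0.07, 95% interval -0.35 to -0.04) and missed the threshold (limma adjusted p = 0.137). In sgCtrl the gene was at 153, 119 and 79.8 CPM and in sg1 at 85.5, 72.6 and 86.4 CPM, where sgCtrl replicate 3 fell inside the sg1 range. The log2 fold change of -0.47 did not pass (limma adjusted p = 0.690), but without sgCtrl replicate 3 it was -0.72 with an adjusted p of 0.0457 in the limma fit, and without sgCtrl replicate 1 it was -0.26 (adjusted p = 0.890).

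In the remaining experiment TNFRSF12A was at 143, 143 and 158 CPM in EV and at 50.8, 20.5 and 36.8 CPM across the libraries labelled KIF20A OE, far apart. It fell 4.10-fold (limma log2 fold change -2.10, SE 0.28, adjusted p = 0.000251). Its ligand TNFSF12 (TWEAK) fell there too, from 24.7, 15.9 and 19.4 CPM to 0.188, 2.03 and 0.214 CPM (limma log2 fold change -3.66, adjusted p = 5.34e-05). TNFSF12 reached the minimum mean of 1 only through EV, which fixes its direction, so this p is not read as support. In the sorted lines TNFSF12 had group means of 6.01 to 9.46 TPM, so ligand and receptor were both read in the same cultures.

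TNFRSF21 (death receptor 6), a death-domain receptor at chr6:47231532-47309905 on the minus strand, was the most abundant of the 10 in Hs578T. It was at 441, 436 and 445 TPM in non-BCSCs and at 473, 463 and 498 TPM in BCSCs, all BCSC values being higher (log2 fold change 0.12). HCC70 non-BCSCs held 86.9, 89.7 and 83.8 TPM and BCSCs 99.0, 101 and 108 TPM, again with every BCSC library higher. The HCC70 means were 86.8 ± 2.96 and 103 ± 4.87 TPM (SD, n = 3). The log2 fold change was 0.24 (SE 0.06, 95% interval 0.11 to 0.37), which missed the threshold narrowly (limma adjusted p = 0.0631) and passed it in DESeq2 on the recovered reads (adjusted p = 0.0252). The sg1 libraries, at 406, 426 and 425 CPM, were all above the sgCtrl libraries at 341, 378 and 366 CPM, with a log2 fold change of 0.21 (95% interval -0.04 to 0.47, limma adjusted p = 0.701). EV held 236, 85.6 and 136 CPM and the libraries labelled KIF20A OE 37.4, 35.2 and 35.3 CPM, a 4.25-fold fall (limma log2 fold change -1.94, SE 0.31, adjusted p = 0.000708).

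**Figure D2:**
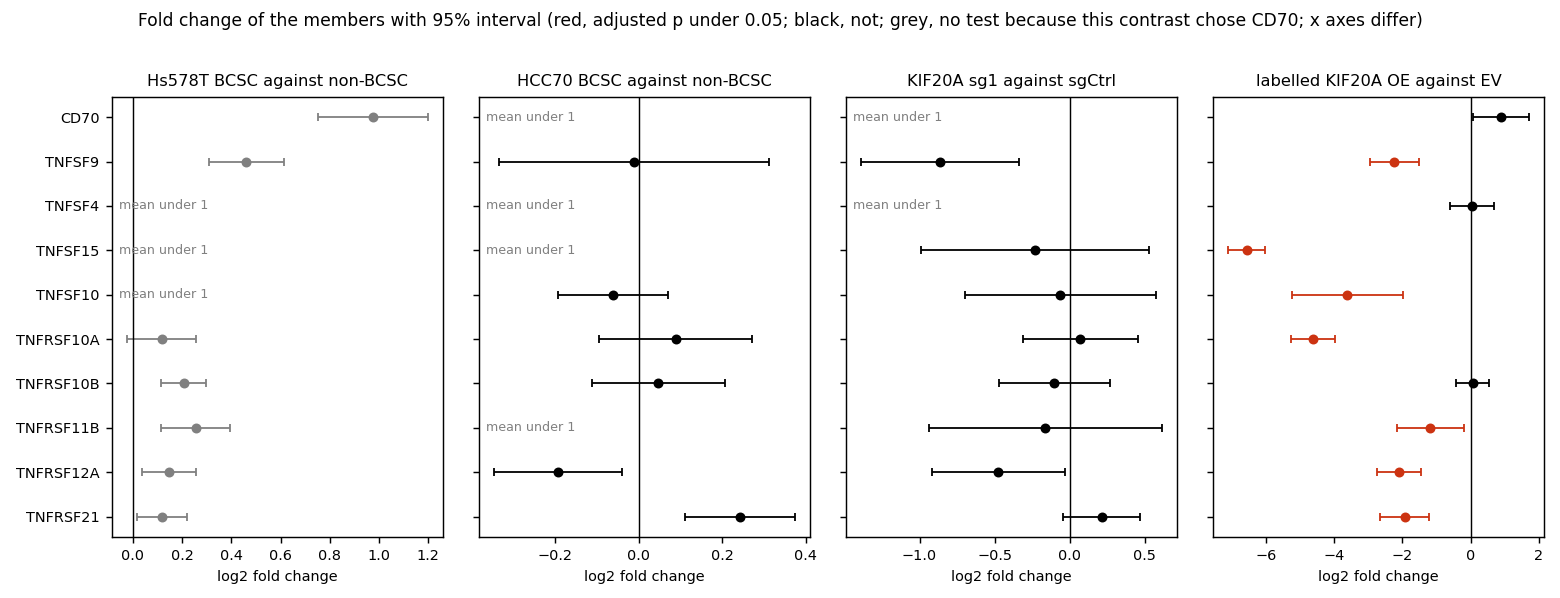
Log2 fold change of each tested gene with its 95% interval in the 4 comparisons, on the log2(value + 1) scale with 3 libraries per group. Red passed the limma threshold, black did not, and grey in Hs578T is shown without a test because that contrast chose CD70. Whether a grey interval reaches 0 is not read as a test. In the labelled KIF20A OE comparison 7 of 10 intervals sit below 0 in red, and CD70 is at 0.89. There limma called 23.4% of all 15265 genes lower and 46.2% higher. Some members reached the minimum mean of 1 through 1 group only, so nothing is read from this count.

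Read per length within a line, the 10 genes kept the same order of level in both Hs578T groups. That TPM order ran TNFRSF21, TNFRSF12A, TNFRSF10B, CD70, TNFRSF10A, TNFSF9, TNFRSF11B, TNFSF4, TNFSF10 and TNFSF15, and neighbors did not overlap except TNFSF10 and TNFSF15 in BCSCs. In HCC70 the order ran TNFSF10, TNFRSF12A, TNFRSF21, TNFRSF10B, TNFSF9 and TNFRSF10A, with CD70, TNFSF4, TNFSF15 and TNFRSF11B near 0. The HCC70 neighbors TNFSF9 and TNFRSF10A overlapped in BCSCs, and the genes near 0 could not be ordered. TNFRSF21, TNFRSF12A and TNFRSF10B were thus the leading receptors among the 10 in both lines, while CD70 and TNFRSF11B were read in Hs578T and TNFSF10 in HCC70.

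**Figure D3:**
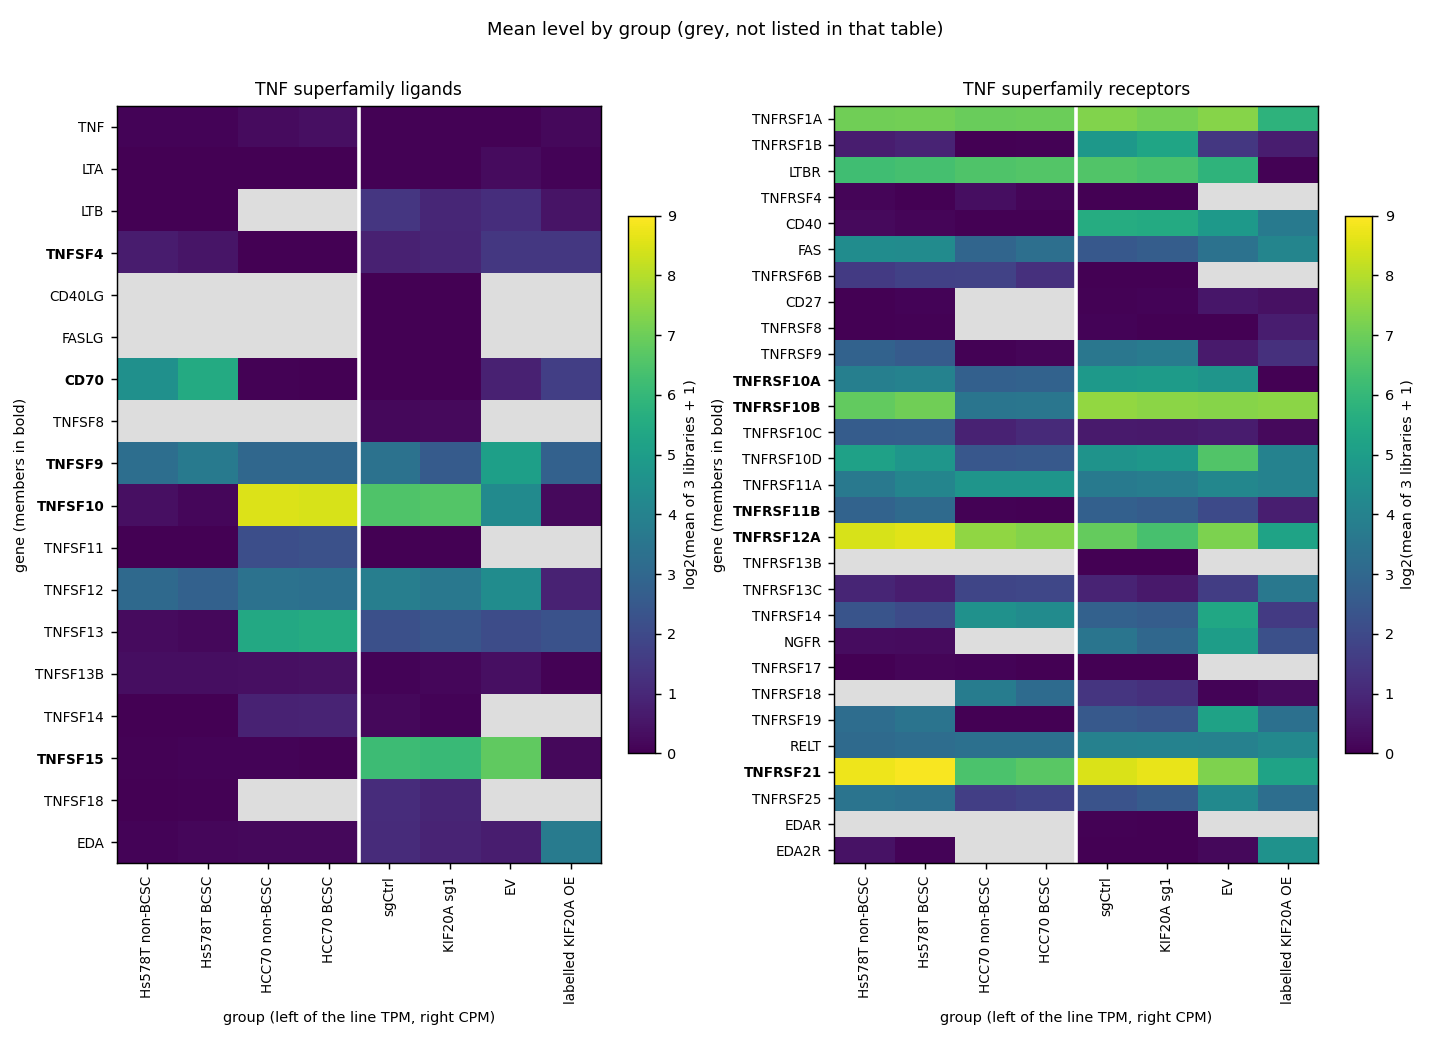
Mean level in each of the 8 groups, as color on a log2(value + 1) scale, for the listed TNF superfamily ligands and receptors. The Hs578T and HCC70 columns are in TPM and the MDA-MB-231 columns in CPM, so the latter may be compared along a row within an experiment but not between genes, and grey marks genes not listed in a table. TNFSF10 is bright in HCC70 at 364 and 349 TPM, and TNFSF15 is dark in the group labelled KIF20A OE.

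The MDA-MB-231 controls of the 2 experiments differed among these genes, and their values are set side by side without a test because the tables were scaled apart. CD70 had 0 reads in sgCtrl and up to 32 in EV. TNFSF9 had a mean of 9.38 CPM in sgCtrl and 32.9 CPM in EV, whereas TNFSF10 was at 86.4 to 95.1 CPM in sgCtrl and 2.80 to 32.9 CPM in EV. TNFRSF21 was at 341 to 378 CPM in sgCtrl and 85.6 to 236 CPM in EV.

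Counted over comparisons, a mean of at least 1 was reached by 7 of the 10 genes in Hs578T, 6 in HCC70, 8 in the KIF20A sg1 experiment and all 10 in the labelled KIF20A OE experiment. In Hs578T, where no test of the members is given, all BCSC libraries were above all non-BCSC libraries for 6 of 7, and for 12.0% of all 13324 genes. Nothing is read from that count, since this contrast chose CD70. In HCC70, limma called 0 of 6 genes higher or lower, against 2.28% and 0.552% of 13218 genes. TNFRSF21 was higher in every HCC70 BCSC library, as were 20.9% of genes, and TNFRSF12A lower in every one, as were 10.1%. At an unadjusted p under 0.05 there were 3134 HCC70 genes, and TNFRSF21 and TNFRSF12A were among them.

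In the KIF20A sg1 experiment limma called 0 of 8 members and 0.00% of 12852 genes at an adjusted p under 0.05. An unadjusted p under 0.05 was reached by 899 genes, TNFSF9 and TNFRSF12A among them, while edgeR called 0 genes and DESeq2 16 on the recovered reads. TNFRSF21 lay above sgCtrl in every sg1 library, as did 5.73% of genes, and TNFSF9 below it, as did 7.30%. In the libraries labelled KIF20A OE 7 of 10 members fell and 0 rose by the limma test, where 46.2% of 15265 genes rose and 23.4% fell. At an unadjusted p under 0.05, 11026 genes passed, and CD70 was among them on the higher side. The members' median log2 fold change was -2.02 there against 0.37 over all genes tested. Scaling by the median of ratios took the all-gene median to 0.03 and left 7 members called lower. TNFSF10, TNFSF15, TNFRSF10A and TNFRSF11B had means under 1 CPM in the labelled libraries and reached the minimum mean only through EV. CD70 reached it only through the labelled libraries. For such genes the filter fixes the direction, so nothing is read from their p-values, or from the member count or median.

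The other genes of the family were described from lists of ligands, receptors, signaling proteins and NF-kB target genes, with the 10 members left out. In Hs578T BCSCs, where limma called 2.90% of all 13324 genes higher and 4.26% lower, it called 1 of 12 receptors higher and 1 lower, 1 of 26 signaling genes higher and 1 lower, 2 of 14 NF-kB targets higher and 1 lower, and 0 of 1 ligand. These counts come from the contrast that chose CD70 and nothing is read from them. Among the genes called, the highest fold changes were those of TRAF1, an adaptor that binds TNF receptors and is itself induced by NF-kB, at 8.66, 7.63 and 9.60 TPM in non-BCSCs and 17.3, 14.9 and 16.8 TPM in BCSCs (log2 fold change 0.85), of the cytokine IL6 (0.53) and of TNFRSF11A, the RANK receptor (0.46). CXCL8, a neutrophil chemokine next in size and named outside the rule of 3 genes, averaged 159 ± 13.2 TPM in non-BCSC libraries and 217 ± 7.03 TPM in BCSC libraries (SD, n = 3). The 3 called lower were TNFRSF10D and the caspase gene CASP10 (both -0.39) and TNFAIP3, an inhibitor of NF-kB signaling (-0.21). Of the 14 NF-kB targets tested, 7 had a positive and 7 a negative log2 fold change. Their median was -0.0092, against -0.0129 over all genes tested. In HCC70 limma called 0 of 3 ligands, 0 of 11 receptors, 0 of 26 signaling genes and 0 of 11 targets. FAS, a death receptor named here after its value was seen, averaged 6.69 ± 0.127 TPM in HCC70 non-BCSCs and 8.76 ± 0.587 TPM across BCSC libraries (SD, n = 3; limma log2 fold change 0.34, adjusted p = 0.0548).

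In the KIF20A sg1 experiment the limma calls were 0 of 5 ligands, 0 of 14 receptors, 0 of 26 signaling genes and 0 of 15 NF-kB targets. In the libraries labelled KIF20A OE 1 of 3 ligands rose and 1 fell, 3 of 14 receptors rose and 6 fell, and 6 of 26 signaling genes rose and 10 fell, where 46.2% of all genes rose and 23.4% fell. Of the 13 NF-kB targets tested, 12 fell and 1 rose, with a median log2 fold change of -1.55 against 0.37 over all genes. Under median-of-ratios scaling the counts were 2 higher and 6 lower for receptors, 5 and 15 for signaling genes, and 1 and 12 for targets, and the shares of all genes 33.8% higher and 33% lower. Genes near 0 in EV or in the labelled libraries reached the minimum mean only through the other group, which fixes their direction. Nothing is therefore read from these counts.

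Among the genes that fell were LTBR, the lymphotoxin beta receptor, at 57.7, 53.5 and 59.8 CPM in EV and 0, 0 and 0.107 CPM across the libraries labelled KIF20A OE. Its 2 reads there put the ratio of means at 1598, with an interval from 441 to 13144 that covers counting error only. ICAM1, an adhesion molecule induced by TNF, fell from 52.2 ± 24.3 to 0.0927 ± 0.0939 CPM (SD, n = 3; limma log2 fold change -5.48, adjusted p = 4.18e-06). BIRC3, an inhibitor of apoptosis bound to TRAF2, was at 49.9, 37.9 and 63.6 CPM in EV and 0.501, 0.902 and 0.214 CPM in the labelled libraries (log2 fold change -5.06). LTBR, ICAM1 and BIRC3 reached the minimum mean of 1 only through EV, which fixes their direction. The ICAM1 p is therefore not read as support. Those that rose most were EDA2R, a receptor of ectodysplasin, from 0, 0 and 0.47 to 19.7, 23.0 and 26.4 CPM, its ligand gene EDA (log2 fold change 3.03) and TNFRSF13C, the BAFF receptor (2.00). The ligand and receptor of the ectodysplasin pair thus moved up together, as TNFSF12 and TNFRSF12A moved down together, in libraries that also differed in CD44, CDKN2A and IRS4. These pairs were picked with their values seen, where 46.2% of all genes rose and 23.4% fell. EDA2R, EDA and TNFSF12 each reached the minimum mean through 1 group only, which fixes their direction. Other pairs did not move together. TNFSF9 fell, while TNFRSF9 overlapped at means of 0.586 CPM in EV and 1.35 CPM in the labelled libraries. TNFSF15 fell, while TNFRSF25 overlapped. What the departure from the label contributed to these changes was not tested.

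**Figure D4:**
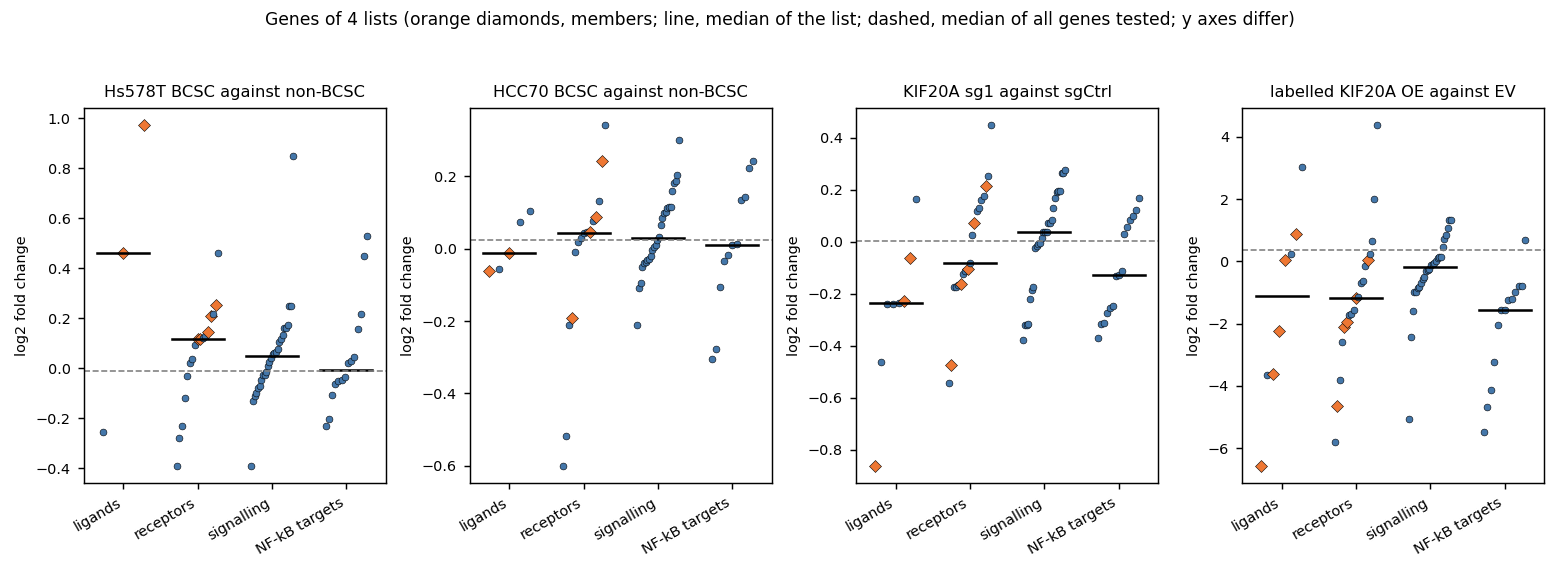
Log2 fold change of every tested gene of the 4 lists (ligands, receptors, signaling genes and NF-kB targets) in each comparison, with the 10 members as orange diamonds, the list median as a solid line and the median of all genes as a dashed line. The y axes differ between panels. In the libraries labelled KIF20A OE, 12 of the 13 NF-kB targets lie below 0. There limma called 46.2% of all 15265 genes higher and 23.4% lower. Some targets, such as ICAM1, reached the minimum mean only through EV, which fixes their direction, so nothing is read from this count.

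Across the 6 Hs578T libraries, the genes whose log2 level followed that of CD70 most closely among 10984 genes were H1F0 (r = 0.993), PHOSPHO1 (0.992), SNORA63 (0.989), PRDM8 (0.987) and SLC35G1 (0.986). PRUNE2 (r = -0.998), C1S (-0.997) and S100A4 (-0.997) ran most opposite to it. TNFSF9 came at rank 100 with r = 0.950, followed by TNFRSF10B (0.935), TNFRSF12A (0.922), TNFRSF11B (0.896), TNFRSF21 (0.801) and TNFRSF10A (0.649). The points share 1 line, 1 table and the same pair of groups, so any gene that separates the groups correlates with CD70, and no p is given.

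Since TNF superfamily ligands and receptors are also made by leukocytes and endothelium, 15 markers of those cells were summed. In Hs578T the sum was 8.53 to 8.84 TPM in non-BCSCs and 6.21 to 7.21 TPM in BCSCs, with CSF1R the highest, and 9 of the 11 listed had a mean under 1 TPM in each group. In HCC70 it was 97.1 to 121 TPM and 86.5 to 92.4 TPM, nearly all from CD14. The sums were 15.3 to 24.6 CPM in sgCtrl, 12.9 to 19.0 CPM in KIF20A sg1, 19.6 to 24.0 CPM in EV and 4.71 to 40.1 CPM across the libraries labelled KIF20A OE. PTPRC, the pan-leukocyte gene, was near 0 in every group. In both sorted lines the sum was lower in BCSCs, the side on which CD70 and TNFSF9 were higher in Hs578T, and its part in those differences was not tested.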

How the data were processed

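RNA was poly-A selected, prepared with a stranded kit and sequenced in paired ends, and reads were aligned to GRCh38; the submitters' processing notes name HISAT2 2.0.5 and featureCounts 1.5.0-p3. The authors deposited TPM values for Hs578T and HCC70 and CPM values for the EV experiment. For the sgRNA experiment the deposited signal values, which the authors call CPM, are counts divided by size factors (totals 977394 to 1028621). Values of all 4 tables came out as whole reads within 0.1 read, but in simulations of the sorted lines only 97.31% (Hs578T) and 97.33% (HCC70) of genes were recovered exactly, with as little as 99.15% and 99.14% of the depth, so read numbers of the sorted lines are estimates.

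The 10 members and all gene lists were chosen with earlier results of these data known. Within each table log2(value + 1) was fitted by limma 3.58.1 (R 4.3.3) over 2 groups of 3 libraries, for genes with a mean of at least 1, with two-sided tests and Benjamini-Hochberg adjustment over all genes at 0.05. Fold changes on this scale understate low genes. Scripts were tested on simulated data. Alternatives were another pseudocount (0.1), other minimum means (10 or none), median-of-ratios scaling, tests of the recovered reads by edgeR 4.0.16 or DESeq2 1.42.0, a replicate block, and leaving out each library. Named genes were the members, up to 3 genes higher and 3 lower per comparison from the wider lists, library checks, and the nearest 5 and farthest 3 genes in pattern to CD70; ligand or receptor partners of members were named outside this rule with their values seen. Depth per library ranged over 28189500 to 33715701 reads for Hs578T, 24681218 to 33559417 for HCC70, 41424338 to 51018667 for sgCtrl and sg1, and 15971297 to 22182293 for EV and labelled KIF20A OE. Limits for 0 reads cover counting error only.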

Additional observations from a re-analysis of the deposited data

Results flagged for a closer look

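TNFRSF12A had measured fold changes of opposite sign in the sorted lines. Its log2 fold change between BCSCs and non-BCSCs was 0.15 in Hs578T, where all 3 BCSC libraries were above all non-BCSC libraries, and -0.19 in HCC70, where all 3 were below. The HCC70 change missed the threshold (limma adjusted p = 0.137), and the Hs578T contrast chose CD70. All BCSC values lay above all non-BCSC values for 12.0% of genes in Hs578T, and below them for 10.1% in HCC70. The difference between the lines was not tested.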

How the results depend on the processing

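The 4 comparisons differed in how far their counts moved. In Hs578T, 953 genes passed the limma threshold, 1646 in edgeR and 343 to 865 when a library was left out. The planned count of members past it is not given, because that contrast chose CD70. In HCC70, 374 genes passed, against 178 with no minimum, 233 under median-of-ratios scaling, 715 in edgeR, 1178 in DESeq2 and 32 to 270 with a library left out (32 without BCSC replicate 1). TNFRSF21 passed, as 1 member in place of 0, with a minimum mean of 10 (adjusted p = 0.0483, limma) and in DESeq2 (adjusted p = 0.0252). In the sg1 experiment 0 genes passed, 16 in DESeq2 and 0 to 144 with a library left out (144 without sgCtrl replicate 3, which called 1 member, TNFRSF12A, where the range was 0 to 1, and 5 without sg1 replicate 2). In the labelled KIF20A OE experiment the CD70 log2 fold change of 0.89 was 2.01 with a pseudocount of 0.1 (limma adjusted p = 0.0940), ranged from 0.52 to 1.19 with a library left out, and passed without EV replicate 1 (1.19, limma adjusted p = 0.0165) or labelled KIF20A OE replicate 2 (1.09, limma adjusted p = 0.0470). There, TNFRSF10B turned from 0.06 to -0.31 under median-of-ratios scaling and to -0.28 in both edgeR and DESeq2, and TNFSF4 from 0.04 to -0.19, -0.33 and -0.34 in that order. TNFSF10 in sg1 turned from -0.06 to 0.077 in edgeR and 0.067 in DESeq2. With a library left out, log2 fold changes crossed 0 for TNFSF9 in HCC70 (-0.10 to 0.13), for TNFSF10 (-0.42 to 0.35), TNFSF15 (-0.60 to 0.27), TNFRSF10A (-0.054 to 0.23), TNFRSF10B (-0.26 to 0.028) and TNFRSF11B (-0.55 to 0.16) in sg1, and for TNFSF4 (-0.16 to 0.31) and TNFRSF10B (-0.087 to 0.28) in the labelled KIF20A OE experiment.

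The share of calls that were higher was 40.5% in Hs578T and 52% under median-of-ratios scaling. It was 80.5% in HCC70, against 71.7% under that scaling, 61.7% in edgeR and 54.5% in DESeq2, and 66.3% in the labelled KIF20A OE experiment, against 50.6%. With the replicate number as a block, 669 Hs578T genes, 128 HCC70 genes, 0 sg1 genes and 10545 genes of the labelled KIF20A OE experiment with 8 members passed, the added member being CD70 at 0.89 (limma adjusted p = 0.0105). The numbers were not taken as pairs: deviations of same-numbered libraries correlated between -0.16 and 0.19, and 8 of 24 libraries, among them all 6 of the labelled KIF20A OE experiment, correlated best with their own number. Of 394 alternative values of member fold changes, 356 kept direction and side of the threshold (in Hs578T, without a test, they moved by under 1 SD) and 25 changed sign, all of them in values that did not pass. CD70 had no tested value in HCC70 and sg1. The cause of these shifts was not tested.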
